A study of Rattus norvegicus with 78 samples.

Results

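GABA-A receptor subunits were examined in the brain of Flinders rats. The members were every probeset whose single gene symbol in the array annotation was Gabra2, Gabra3, Gabra4, Gabra5, Gabrb1, Gabrb2 or Gabrd, which gave 10 probesets of 7 genes among 31099 probesets on the array. Gabrb2 was read by 2 probesets, Gabrd by 3 and the other genes by 1 each. The annotation held 14 further probesets of other GABA-A receptor subunits, which were not analysed here.

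GABA-A receptors are pentameric chloride channels that open when GABA, the main inhibitory transmitter of the brain, binds where an alpha and a beta subunit meet. Alpha2 and alpha3 are subunits of benzodiazepine-sensitive receptors, many of which lie at synapses. Alpha5, alpha4 and delta are known from receptors outside the synapse that carry a sustained inhibitory current, and delta is often partnered by alpha4. Beta1 and beta2 contribute to the GABA site and to the assembly of the receptor.

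Rats of the Flinders Sensitive Line (FSL), selectively bred from Sprague-Dawley stock for sensitivity to a cholinesterase inhibitor and used as a model of depression, were compared with the Flinders Resistant Line (FRL), the control line bred beside it. All were adult males, and all had been through a forced swim test 1 week before the right hemisphere was collected. Prefrontal/frontal cortex (P/FC, the whole frontal lobe) and hippocampus (HIP) were each measured on 39 arrays, with 8 FSL and 10 FRL arrays in cohort 2 and 9 FSL and 12 FRL arrays in cohort 1. Cohort 2 was set up 6 months after cohort 1 and was run with other reagents and another lot of arrays, and the regions were processed separately. The lines were bred apart and may differ at many loci, and the tissue was not sorted, so that fewer cells of a type and less RNA per cell cannot be told apart.

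The values were normalised intensities on a linear scale, and the array medians ranged from 60.8 to 66.0 in P/FC and from 56.8 to 63.0 in HIP. The labelled regions were checked against marker genes. All 5 markers of hippocampal CA pyramidal neurons were lower in P/FC than in HIP, with a median log2 difference of -1.07. Of the 5 measured markers of cortical layers, 5 passed the intensity filter in P/FC and 3 in HIP, and of these 3 there was 1 higher in P/FC, 1 lower and 1 that did not pass. A probeset entered the tests of a region if 50% or more of the FSL arrays and of the FRL arrays exceeded an intensity of 30. All 10 member probesets passed in P/FC and 9 in HIP, where Gabra3 did not. Changes are given as log2 differences with their standard error (SE), and p-values were adjusted over all probesets tested.

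The promoters of the members were read from RefSeq (assembly GRCr8), whose table held 6 of the 7 genes and not Gabra2. The 250 bases before the start of each gene were searched on both strands for 3 short motifs, chosen with these promoters already in view. The letters GCGCATG, from the core of a nuclear respiratory factor 1 site, were held by Gabrb1 and Gabrb2, as by 1090 of 33469 promoters in the table (3.26%). The letters TGCGCA, an overlapping piece of the same core, were held by these 2 and by Gabra4 and Gabrd, as by 6.14% of the promoters. The letters TATAAA, the core of a TATA box, were held by Gabra3, as by 12.9% of the promoters. The stretches with the first motif are shown because the beta subunits are compared below. The capitals mark the letters GCGCATG, whose matches on the opposite strands overlap in both genes.
Gabrb1: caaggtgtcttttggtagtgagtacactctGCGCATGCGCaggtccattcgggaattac
Gabrb2: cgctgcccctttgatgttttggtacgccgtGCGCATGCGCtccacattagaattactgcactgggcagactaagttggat
The Gabrb1 stretch lies on the minus strand at chr14:36902894-36902952, with the first capital 29 bases before the start. The Gabrb2 stretch lies on the plus strand at chr10:27439668-27439747, with the first capital 95 bases before the start. A match of letters is a description and not a measured binding site. Gabrb1, Gabra4, Cox7b2 and Gabra2 follow each other on chromosome 14 among protein-coding genes of this assembly.

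The first comparison asked in which region each subunit had the higher signal. All 9 member probesets tested in both regions differed between P/FC and HIP, against 69.6% of the 20963 probesets tested. Of these 9, Gabrb2, Gabrd and Gabra4 were higher in P/FC (6 probesets), against 48.5% of all probesets, and Gabra5, Gabra2 and Gabrb1 were lower (3 probesets), against 21.1%. Within FSL 8 of the 9 passed (56.9% of all probesets) and within FRL also 8 (60.7%), with Gabra4 the exception in both. Each probe binds with its own strength, so the values compare regions and not genes.

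Gabra5 encodes the alpha5 subunit, long known as a hippocampal subunit. Its intensity spanned 249 to 451 (median 345) on the P/FC arrays, against 578 to 894 (median 736) on the HIP arrays. No P/FC array reached the lowest HIP array, and the share of all probesets separated in this way was not counted. The means were 341 ± 51.0 in P/FC and 748 ± 69.3 in HIP (SD, n = 39 each), a log2 difference of -1.13 (SE 0.0407, adjusted p = 1.00e-38), or 2.19-fold lower in P/FC. Gabra2 averaged 271 ± 56.9 in P/FC and 438 ± 78.4 in HIP, a log2 difference of -0.69 (SE 0.0562, adjusted p = 1.39e-18). The ranges of Gabra2 overlapped, with 160 to 386 in P/FC and 283 to 629 in HIP. Gabrb1 averaged 472 ± 142 in P/FC and 632 ± 179 in HIP, a log2 difference of -0.43 (SE 0.0531, adjusted p = 5.53e-11). Its wide SD is taken up with the cohorts below.

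Gabrb2 and Gabrd had the opposite order. The brighter Gabrb2 probeset (1377773_at) spanned 1121 to 1567 (median 1352) in P/FC, against 586 to 895 (median 743) in HIP. The main Gabrd probeset (1369048_at) spanned 373 to 582 (median 442) in P/FC, against 200 to 323 (median 244) in HIP. Neither probeset had an array of P/FC inside the HIP range, and here too the share of all probesets without overlap was not counted. The log2 differences were 0.86 for Gabrb2 (SE 0.0289, adjusted p = 1.77e-40) and 0.83 for Gabrd (SE 0.0299, adjusted p = 1.37e-38), which are 1.81-fold and 1.78-fold. The dimmer Gabrb2 probeset (1369818_at) gave a log2 difference of 0.80 (SE 0.103, adjusted p = 1.97e-10), close to that of the brighter. The 3 Gabrd probesets shared the direction and not the size, with 1.75 for the s probeset (1395269_s_at) and 0.44 for the x probeset (1395270_x_at). The suffix s marks a probeset whose probes match several transcripts, and x a probeset with probes that can also bind other sequences.

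Gabra4 differed least. It averaged 185 ± 30.6 in P/FC and 165 ± 28.9 in HIP, a log2 difference of 0.17 (SE 0.0562, adjusted p = 0.00495). The call was not made in FSL alone (0.19, adjusted p = 0.0506) or in FRL alone (0.16, adjusted p = 0.0586). After quantile normalisation the difference was 0.09 (adjusted p = 0.151), with tissue marker scores in the fit 0.17 (adjusted p = 0.126) and with the astrocyte score 0.04 (adjusted p = 0.660). Gabra3 was dim, with a mean of 37.5 ± 18.6 in P/FC and 18.8 ± 7.41 in HIP, and 25 of 39 P/FC arrays and 3 of 39 HIP arrays exceeded 30, so that its region difference was not tested. The plot of all arrays shows these levels.

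**Figure D1:**
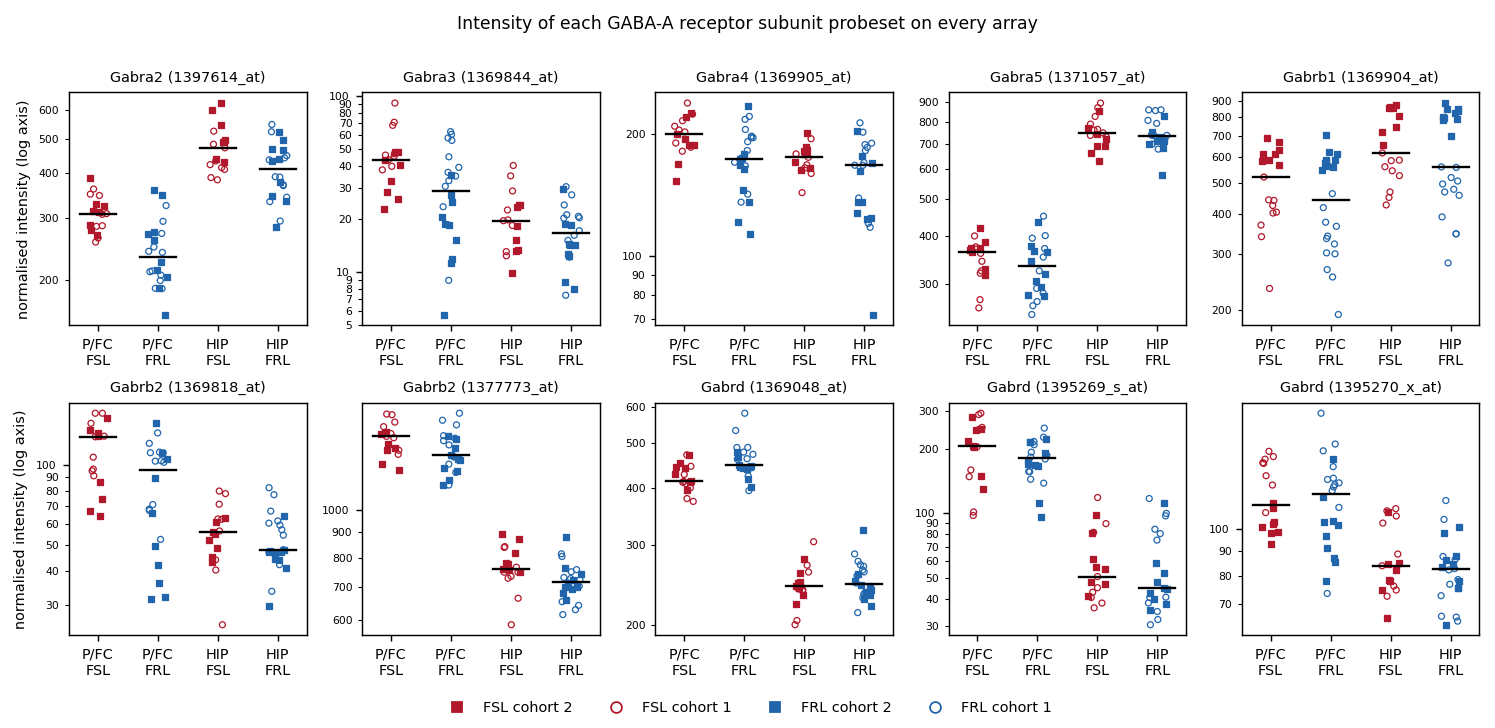
Normalised intensity (log axis) of the 10 GABA-A receptor subunit probesets on every array, by region (P/FC, HIP) and line (FSL red, FRL blue), with filled squares for cohort 2, open circles for cohort 1 and a bar at the median. The P/FC arrays lay wholly below the HIP arrays for Gabra5 and wholly above them for Gabrb2 1377773_at and Gabrd 1369048_at. The share of all probesets separated in this way was not counted.

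The next comparison asked whether the subunits differed between FSL and FRL in P/FC. Over both cohorts 5 of 10 member probesets passed, against 18.6% of the 22370 probesets tested. Gabra2, Gabra3, Gabra4 and the dimmer Gabrb2 probeset were higher in FSL (9.76% of all probesets were higher), and the main Gabrd probeset was lower (8.86%). The median log2 change of the members was 0.16, against 0.0019 over all probesets. The direction was the same in both cohorts for all 10 probesets. By itself cohort 2 gave 1 call among the 10 (Gabra3), against 3.78% of all probesets, and cohort 1 gave 2 (Gabra2 and Gabrd), against 7.8%.

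Gabra2 had the smallest p. In P/FC its intensity spanned 256 to 386 (median 308) in the 17 FSL rats, against 160 to 359 (median 233) in the 22 FRL rats. Every FSL rat exceeded the FRL median, but the ranges overlapped. The log2 change was 0.37 (SE 0.0822, adjusted p = 0.00158), or 1.29-fold. It was 0.35 in cohort 2 (adjusted p = 0.0878) and 0.39 in cohort 1 (adjusted p = 0.0267). An unadjusted p of 0.05 in each cohort, in this fit without the labelling batch, was reached in P/FC by Gabra2 alone of the 10 probesets, against 9.87% of all probesets with the same sign. In HIP no member reached it, against 4.85%. The authors, with the labelling batch in their model, reported the dimmer Gabrb2 probeset at a p under 0.05 in each cohort of P/FC. By real-time PCR they reported a small increase of Gabrb2 in FSL P/FC over both cohorts and in cohort 2. In cohort 1 of P/FC and in HIP their PCR difference was not significant. Their PCR tables write this assay as Gabbr2. Here the dimmer Gabrb2 probeset had an unadjusted p of 0.119 in cohort 1 and 0.00781 in cohort 2 of P/FC (limma). The cause of this departure from the paper was not tested.

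Gabra3 had the largest log2 change. Its intensity spanned 22.9 to 91.5 (median 43.5) in FSL, against 5.71 to 62.9 (median 29.0) in FRL. The probeset was near the lower limit of the filter, with 14 of 17 FSL arrays and 11 of 22 FRL arrays above 30, and the ranges overlapped over most of their length. The log2 change was 0.78 (SE 0.200, adjusted p = 0.00563), or 1.71-fold. With 16 added to each value before the logarithm it was 0.47 (adjusted p = 0.00454). In cohort 2 the change was 1.04 (adjusted p = 0.0346), with all 8 FSL rats above the FRL median. There 5 of 8 FSL arrays and only 1 of 10 FRL arrays exceeded 30, and the FRL mean was 19.0. In cohort 1, where 9 of 9 FSL and 10 of 12 FRL arrays exceeded 30, the change was 0.51 (adjusted p = 0.263).

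Gabra4, the usual partner of delta, spanned 153 to 238 (median 200) in FSL, against 113 to 234 (median 174) in FRL. In FSL 15 of 17 rats exceeded the FRL median. The log2 change was 0.22 (SE 0.0712, adjusted p = 0.0274), with 0.28 in cohort 2 (adjusted p = 0.123) and 0.16 in cohort 1 (adjusted p = 0.326). Gabra5 spanned 259 to 421 (median 363) in FSL and 249 to 451 (median 333) in FRL, which is nearly the same range. Its change of 0.08 did not pass (adjusted p = 0.483).

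The beta subunits gave smaller or less even values. The dimmer Gabrb2 probeset spanned 64.2 to 155 (median 127) in FSL, against 31.6 to 143 (median 95.4) in FRL. The lowest values were FRL arrays, and 11 of 17 FSL rats exceeded the FRL median. The log2 change was 0.53 (SE 0.168, adjusted p = 0.0239), or 1.44-fold, with 0.69 in cohort 2 (adjusted p = 0.0993) and 0.36 in cohort 1 (adjusted p = 0.350). The brighter probeset of the gene spanned 1203 to 1561 (median 1407) in FSL, against 1121 to 1567 (median 1288) in FRL. Its FSL values lay within the FRL range, and its change of 0.09 (SE 0.0397) did not pass (adjusted p = 0.108, unadjusted p = 0.0287). Gabrb1 spanned 234 to 689 (median 521) in FSL and 194 to 703 (median 440) in FRL, and its change of 0.17 (SE 0.0804) did not pass (adjusted p = 0.138).

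Gabrd was the single member gene with a probeset lower in FSL. The main probeset spanned 373 to 472 (median 413) in FSL, against 394 to 582 (median 447) in FRL, and 14 of 17 FSL rats were below the FRL median. The log2 change was -0.11 (SE 0.0379, adjusted p = 0.0350). It was -0.04 in cohort 2 (adjusted p = 0.781) and -0.19 in cohort 1 (adjusted p = 0.0209). Leaving out any of 6 arrays ended the call (adjusted p between 0.0509 and 0.0626). The other Gabrd probesets gave 0.15 (s, adjusted p = 0.476) and 0.05 (x, adjusted p = 0.700), and the mean of the 3 gave 0.027 (adjusted p = 0.773).

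In HIP none of the 9 member probesets passed, against 7.33% of the 21630 probesets tested with limma, and a plain analysis of variance gave 0 as well. At an unadjusted p of 0.05 there were 3, Gabra2, Gabra4 and the brighter Gabrb2 probeset, against 21.1% of all probesets, and all were higher in FSL. The median log2 change of the members was 0.10, against -0.0016 over all probesets, and 5 of 9 kept one sign in both cohorts.

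Gabra2 came closest. In HIP it spanned 383 to 629 (median 471) in FSL, against 283 to 548 (median 411) in FRL, with 14 of 17 FSL rats above the FRL median. The log2 change was 0.22 (SE 0.0747, adjusted p = 0.0669), and it passed when any of 4 FRL arrays was left out (adjusted p between 0.0312 and 0.0459). Gabra4 spanned 143 to 201 (median 175) in FSL, against 71.7 to 213 (median 167) in FRL. The FSL values lay inside the FRL range, and the change of 0.19 did not pass (adjusted p = 0.187). The brighter Gabrb2 probeset gave 0.10 (adjusted p = 0.160), Gabrb1 0.11 (adjusted p = 0.368) and Gabra5 0.03 (adjusted p = 0.748). The Gabrd probesets gave -0.03 (main), 0.11 (s) and 0.07 (x), all with overlapping ranges.

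Whether the line change differed between the regions was tested for the 9 probesets kept in both. None passed, against 0.0668% of all probesets, and at an unadjusted p of 0.05 there was 1, the dimmer Gabrb2 probeset (difference 0.44, p = 0.0390, adjusted p = 0.595), against 7.94%. The Gabra2 change was larger in P/FC by 0.15 (SE 0.112, adjusted p = 0.773), so the calls in P/FC were not shown to differ from the values in HIP. Between the cohorts no probeset of any gene passed in either region (0%). At an unadjusted p of 0.05, which 4.63% of all probesets met in P/FC and 4.33% in HIP, no member passed in P/FC and 2 did in HIP, Gabra4 (cohort 2 minus cohort 1 of the line change 0.35, p = 0.0464) and Gabrb1 (-0.28, p = 0.0432).

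**Figure D2:**
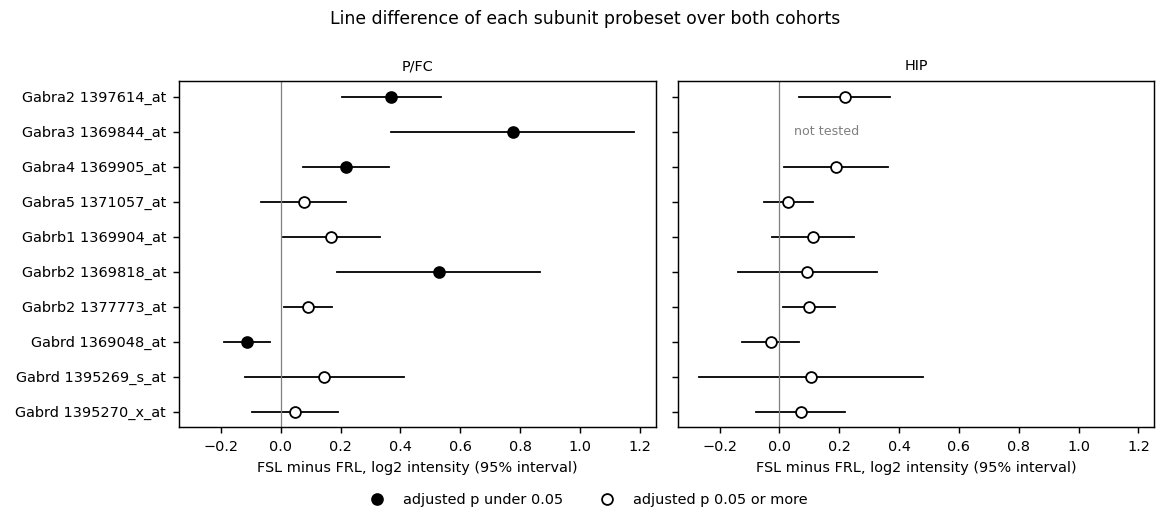
FSL minus FRL log2 intensity over both cohorts for each member probeset, in P/FC on the left and HIP on the right, with 95% intervals and filled points where the adjusted p was under 0.05. The 5 filled points are all in P/FC, 4 above 0 and Gabrd 1369048_at below it, and the HIP interval of Gabra2 lies above 0 although its adjusted p was 0.0669.

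Averages of RNA integrity ratios and of cell markers differed between the lines and are given beside these calls. The ratios were not tested for line. For Gapdh, the log2 ratio of its 3' control probeset over its 5' counterpart shows how much of this transcript reached its 5' end. In P/FC it averaged 0.82 in FSL and 0.92 in FRL of cohort 2, and 0.74 in FSL and 0.83 in FRL of cohort 1. In HIP it averaged 0.82 and 0.86 in cohort 2, and 0.76 and 0.80 in cohort 1. The beta-actin ratio averaged 0.84 and 0.86 in P/FC of cohort 2, and 0.64 and 0.73 in cohort 1. Its HIP averages, FSL before FRL, were 0.73 and 0.82 in cohort 2, and 0.60 and 0.72 in cohort 1. Members were correlated with the Gapdh ratio over the 39 arrays of a region after the line and cohort means were removed. This was among 95 such tests, with permutation p-values adjusted over them. In P/FC the dimmer Gabrb2 probeset had r = -0.81 (adjusted p = 1.36e-04 by permutation) and rho -0.79 (adjusted p = 1.90e-04 by permutation), with -0.91 in cohort 2 and -0.70 in cohort 1. Gabra4 had r = -0.74 (adjusted p = 1.36e-04 by permutation) and rho -0.74 (adjusted p = 3.17e-04 by permutation), with -0.83 in cohort 2 and -0.63 in cohort 1. The unadjusted p of 1e-05 behind these values of r is the smallest that the permutations can give. Both relations kept their direction without the 2 arrays farthest from the median (-0.76 and -0.65). Both passed in HIP too (r = -0.60, adjusted p = 3.56e-04, and r = -0.57, adjusted p = 0.00123, by permutation). There the main Gabrd probeset passed with the opposite sign by r (0.43, adjusted p = 0.0392 by permutation). It did not pass by rho (0.25, adjusted p = 0.351 by permutation). In P/FC Gabra3 had r = -0.43 (rho -0.41, adjusted p = 0.0897 by permutation), Gabra2 r = -0.33 (rho -0.33, adjusted p = 0.273 by permutation) and the main Gabrd probeset r = -0.0031. The Gabrd s probeset passed (r = -0.40, adjusted p = 0.0365, and rho -0.43, adjusted p = 0.0360, by permutation). With the same ratio of beta-actin Gabra3 had r = -0.54 (adjusted p = 0.00941 by permutation) and rho -0.61 (adjusted p = 9.50e-04 by permutation), with -0.47 in cohort 2, -0.66 in cohort 1 and -0.58 without the 2 outermost arrays. Gabra4 (r = -0.72) and the dimmer Gabrb2 probeset (r = -0.71) also passed with it (adjusted p = 1.36e-04 each by permutation). In HIP Gabra4 (r = -0.71, adjusted p = 1.36e-04) and the dimmer Gabrb2 probeset (r = -0.55, adjusted p = 0.00106) passed with the beta-actin ratio too, by permutation.

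With the Gapdh ratio in the limma fit none of the 10 P/FC probesets passed (3 at an unadjusted p of 0.05), and 853 of 22370 probesets did. The dimmer Gabrb2 probeset had a line change of 0.0036 with the ratio and 0.53 without it. Gabra4 had 0.02 with the ratio and 0.22 without it, whereas Gabra2 kept 0.27 (adjusted p = 0.101) and Gabra3 0.44 (adjusted p = 0.290). Gabrd kept -0.11 (adjusted p = 0.172). The same ratio for beta-actin left Gabra2 (0.38, adjusted p = 0.00283) and Gabra3 (0.60, adjusted p = 0.0201). In HIP 3 member probesets had an unadjusted p under 0.05 in limma without a covariate, 2 with the Gapdh ratio and 0 with the beta-actin ratio.

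Astrocyte markers also moved with line in P/FC. Of 8 measured markers 7 were lower in FSL P/FC and none was higher, with a median log2 change of -0.26. Their summed intensity spanned 11693 to 14363 (median 12649) in FSL, against 11615 to 17822 (median 15103) in FRL. In HIP 5 of 8 were lower, with a median of -0.12. No astrocyte marker was at 0 in either line. With the mean log2 level of these markers in the fit, an alternative added after the data were seen, none of the 10 P/FC probesets passed with limma (3 at an unadjusted p of 0.05), and 404 of all probesets did. Gabra2 kept 0.35 (adjusted p = 0.0914), whereas Gabra3 had 0.39 (adjusted p = 0.545), the dimmer Gabrb2 probeset 0.17 and Gabra4 0.05.

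Markers of the striatum, which borders the frontal lobe, were uneven between P/FC arrays. Of 10 measured markers 2 were higher in FSL, with a median log2 change of 0.55, and their summed intensity spanned 1669 to 6533 (median 3831) in FSL and 1551 to 6429 (median 2120) in FRL. With striatal and meningeal marker levels in the fit Gabra2 (0.33, adjusted p = 0.0133) and Gabra3 (0.81, adjusted p = 0.0137) still passed. Gabra4 had 0.21 (adjusted p = 0.0811), the dimmer Gabrb2 probeset 0.49 (adjusted p = 0.0765) and Gabrd -0.08 (adjusted p = 0.180). The part of RNA integrity and of cell makeup in the line changes beyond these fits was not tested.

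**Figure D3:**
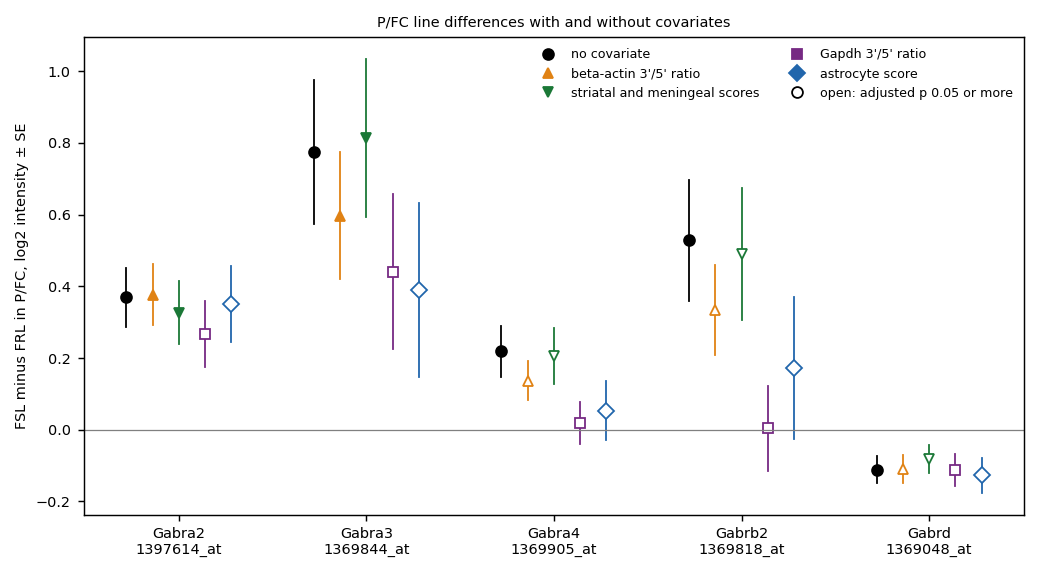
FSL minus FRL log2 intensity in P/FC (± SE, 39 arrays) for the 5 member probesets that passed, without a covariate and with each of 4 covariates in the fit, with open symbols where the adjusted p was 0.05 or more. Gabra2 and Gabra3 stayed above 0 under each covariate, and Gabra4 and Gabrb2 1369818_at lay close to 0 with the Gapdh ratio.

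Gabrb1 was separated by cohort, whereas the ranges of the lines overlapped. In cohort 1 its FSL minus FRL change was 0.28 in P/FC (unadjusted p = 0.0142, adjusted p = 0.105, limma). In HIP of cohort 1 the change was 0.25 (unadjusted p = 0.00937, adjusted p = 0.154, limma). In cohort 2 the changes were 0.06 in P/FC and -0.03 in HIP. In HIP Gabrb1 spanned 657 to 872 (median 829) in cohort 2 and 426 to 619 (median 545) in cohort 1 of FSL. In FRL it spanned 701 to 886 (median 812) in cohort 2 and 281 to 560 (median 472) in cohort 1. Within each line no cohort 2 array fell into the range of cohort 1. In P/FC the FSL arrays spanned 566 to 689 in cohort 2 and 234 to 521 in cohort 1. The FRL arrays there spanned 549 to 703 in cohort 2 and 194 to 462 in cohort 1, again without overlap. The share of all probesets whose cohorts did not overlap was not counted.

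The cohort 2 minus cohort 1 log2 difference of Gabrb1 was 0.78 in P/FC (SE 0.0804, adjusted p = 1.43e-09, 1.72-fold) and 0.73 in HIP (SE 0.0679, adjusted p = 4.44e-11, 1.66-fold). This comparison was added after the data were seen. A difference at least as large was found for 0.532% of all probesets in P/FC and 0.920% in HIP, while 27.8% and 39.3% of probesets passed. With the Gapdh ratio in the fit it was 0.83 in P/FC and 0.75 in HIP. The rats, reagents and array lots of the cohorts cannot be told apart. The neighbouring genes Gabra4 and Gabra2 did not share the difference, with -0.16 and 0.05 in P/FC and -0.10 and 0.13 in HIP, all with an adjusted p above 0.05.

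Of the other members 2 passed in P/FC and 1 in HIP, all lower in cohort 2. They were Gabra3 in P/FC (-0.85, adjusted p = 0.00146), the Gabrd x probeset in P/FC (-0.34, adjusted p = 3.52e-04) and Gabra5 in HIP (-0.12, adjusted p = 0.0149). The main Gabrd probeset did not follow the x probeset, with a difference of -0.01 in P/FC.

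**Figure D4:**
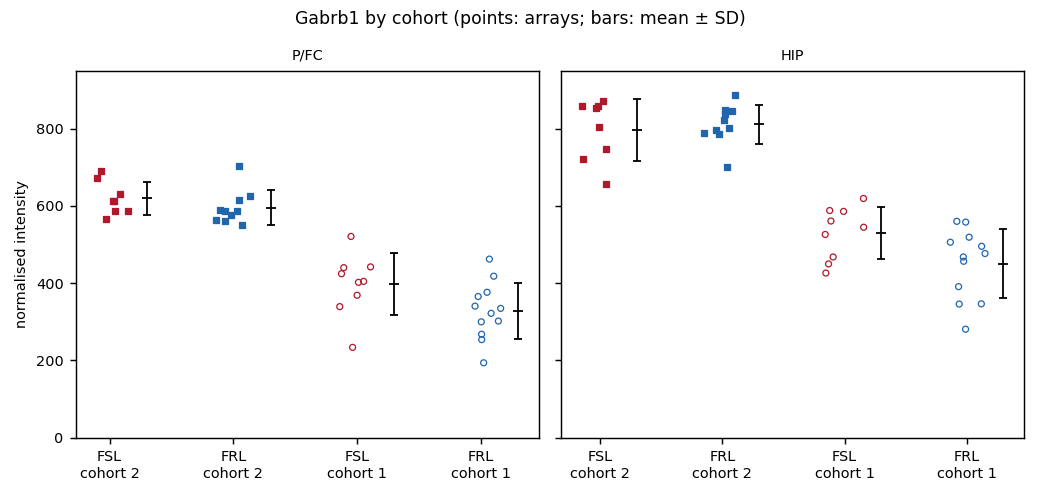
Normalised intensity of Gabrb1 on each array by line and cohort, in P/FC on the left and HIP on the right, with the mean ± SD of each group (8 to 12 arrays) beside the points. In each line and region the cohort 2 arrays lie above all cohort 1 arrays, and the share of all probesets separated in this way was not counted.

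Probesets of a gene were then set side by side over the 39 arrays of a region, after line and cohort means were removed. These correlations describe how far the probesets track each other, and the points share array and RNA sample. The Gabrb2 pair had r = 0.42 in P/FC (0.23 in cohort 2 and 0.74 in cohort 1) and r = 0.26 in HIP (-0.39 in cohort 2 and 0.48 in cohort 1). The main Gabrd probeset had r = 0.12 in P/FC and -0.01 in HIP with the s probeset, and 0.40 and 0.28 with the x probeset. The last Gabrd pair, s with x, had r = -0.06 in P/FC and -0.51 in HIP, where it was -0.01 in cohort 2 and -0.73 in cohort 1. Probesets that carry the name of 1 gene thus differed in level, in line change and in their spread over arrays.

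Coupling between genes was examined with the brightest probeset of each, for 21 pairs in P/FC and 15 in HIP, with permutation p-values adjusted over the 36 pairs. Of these, 3 pairs passed in P/FC and 2 in HIP. The share of pairs of other genes that would pass was not counted, so these counts are not shown to be particular to the subunits. The 2 outermost arrays of a pair were those farthest from the median of its first named gene. Gabra5 with Gabrb2 passed in both regions, with opposite signs. In P/FC r was 0.65 (adjusted p = 0.00144 by permutation) and rho 0.61 (adjusted p = 0.00900 by permutation), with 0.58 in cohort 2 and 0.69 in cohort 1 and 0.55 without the 2 outermost arrays. In HIP r was -0.54 (adjusted p = 0.0106 by permutation) and rho -0.49 (adjusted p = 0.0349 by permutation), with -0.65 in cohort 2, -0.48 in cohort 1 and -0.48 without the 2 outermost arrays (adjusted p = 0.0659 by permutation). With the mean of both Gabrb2 probesets the HIP value was -0.21 (adjusted p = 0.320 by permutation) and the P/FC value 0.46 (adjusted p = 0.0300 by permutation). By the brighter probeset, arrays high in Gabra5 were high in Gabrb2 in P/FC and low in Gabrb2 in HIP. The difference between the regions was not tested.

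**Figure D5:**
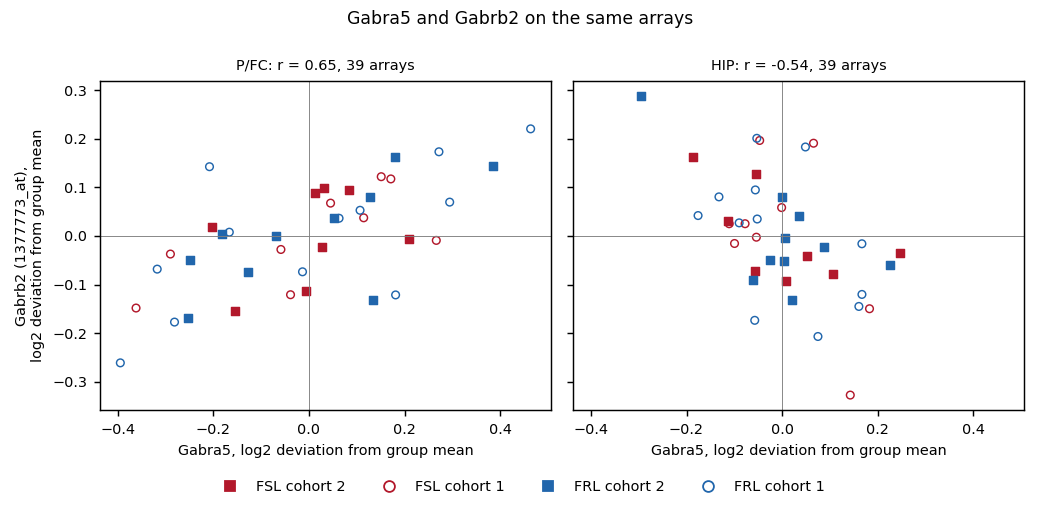
Gabrb2 (1377773_at) against Gabra5 on each of 39 arrays per region, both as log2 deviations from the mean of the array's line and cohort, with P/FC on the left and HIP on the right. The points run upwards in P/FC (r = 0.65) and downwards in HIP (r = -0.54).

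The other pairs were weaker. In P/FC Gabra4 with Gabrb2 had r = 0.53 (adjusted p = 0.0138 by permutation) and rho 0.50 (adjusted p = 0.0349 by permutation), with 0.39 in cohort 2, 0.69 in cohort 1 and 0.57 without the 2 outermost arrays. Gabra4 with Gabra5 had r = 0.45 (adjusted p = 0.0490 by permutation) and rho 0.38 (adjusted p = 0.167 by permutation), with 0.45 in cohort 2 and 0.49 in cohort 1. In HIP Gabra5 with Gabrd had r = -0.44 (adjusted p = 0.0490 by permutation) and rho -0.35 (adjusted p = 0.167 by permutation), with -0.73 in cohort 2, -0.22 in cohort 1 and -0.34 without the 2 outermost arrays. This last relation did not pass without those arrays (adjusted p = 0.251 by permutation).

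In P/FC Gabra5 and the brighter Gabrb2 probeset were also correlated with the astrocyte markers. Gabra5 had r = -0.73 with their mean log2 level (rho -0.73, -0.51 in cohort 2 and -0.86 in cohort 1, -0.70 without the 2 outermost arrays), and Gabrb2 r = -0.75 (rho -0.74, -0.67 in cohort 2 and -0.79 in cohort 1, -0.72 without those arrays), both with an adjusted p of 1.36e-04 for r and 1.90e-04 for rho by permutation. The dimmer Gabrb2 probeset passed by rho (-0.44, adjusted p = 0.0427 by permutation) and not by r (-0.42, adjusted p = 0.0870 by permutation), and Gabra4 (r = -0.48, adjusted p = 0.0516 by permutation) and Gabrb1 (r = -0.44, adjusted p = 0.0518 by permutation) did not pass. With that level removed, Gabra5 with Gabrb2 had r = 0.23 in P/FC (adjusted p = 0.330 by permutation) and -0.54 in HIP (adjusted p = 0.0108 by permutation). Gabra4 with Gabrb2 then had r = 0.29 (adjusted p = 0.285 by permutation) and Gabra4 with Gabra5 r = 0.17 (adjusted p = 0.538 by permutation) in P/FC. With the Gapdh ratio and tissue markers removed, Gabra5 with Gabrb2 kept r = 0.59 in P/FC (adjusted p = 0.00594 by permutation), whereas Gabra4 with Gabrb2 (r = 0.37, adjusted p = 0.130 by permutation) and Gabra4 with Gabra5 (r = 0.38, adjusted p = 0.109 by permutation) no longer passed. The neighbours Gabra4 and Gabra2 had r = 0.19 in P/FC and 0.40 in HIP, and neither passed.

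Genes around the receptor were read from lists of the GABA pathway, each gene by its brightest probeset. Of 6 genes of GABA synthesis, uptake and breakdown that passed the filter, 3 were higher in FSL P/FC and none was lower, with a median log2 change of 0.19. They were Gad2 (0.47, adjusted p = 0.0126) and Gad1 (0.22, adjusted p = 0.0319), the enzymes that make GABA, and Slc32a1, the vesicular transporter of GABA (0.39, adjusted p = 0.0254). Their changes were 0.21, 0.03 and 0.10 in cohort 2 and 0.73, 0.40 and 0.68 in cohort 1, where the striatal markers also differed most (Drd1 0.27 in cohort 2 and 1.24 in cohort 1). These genes are also 3 of the 9 interneuron markers, and no other marker of that list passed in P/FC. In HIP Gad1 was higher (0.14, adjusted p = 0.00164) and the other 5 did not pass.

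Of 8 genes of the inhibitory postsynaptic scaffold, 2 were higher and 2 lower in FSL P/FC, with a median of 0.0011. Gphn, which encodes gephyrin, the scaffold under inhibitory synapses, was higher by 0.11 (adjusted p = 0.0185), and Mkln1, a partner of receptor transport, by 0.13 (adjusted p = 0.00247). Nlgn2, the adhesion protein of inhibitory synapses, gave -0.24 (adjusted p = 0.00477) and Iqsec3 -0.17 (adjusted p = 0.00995). In HIP Nlgn2 (-0.26) and Iqsec3 (-0.09) were lower and Mkln1 (0.16) was higher.

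Of 12 genes of receptor trafficking 2 were higher in FSL P/FC, Gabarapl1 (0.13, adjusted p = 0.0391) and Nsf (0.11, adjusted p = 0.0381), and 1 was lower, the transport adaptor Trak1 (-0.25, adjusted p = 5.24e-04), with a median of 0.04. In HIP Trak1 was lower (-0.11, adjusted p = 0.0202) and no other passed. Of 6 genes of chloride transport, which sets the direction of the receptor's current, the kinase gene Stk39 was higher (0.13, adjusted p = 0.0202) and the chloride channel Clcn2 lower (-0.25, adjusted p = 0.0358) in P/FC, and none passed in HIP. Of these 32 genes, read by 1 probeset each, 8 were higher and 4 lower in FSL P/FC, against 9.76% of all probesets higher and 8.86% lower. In FSL HIP 2 were higher and 3 lower, against 7.33% of all probesets called in either direction.

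The genes whose array-to-array pattern was most like each member were found by Pearson's r over the 39 arrays of a region, with line and cohort means removed. They are named as a description, since the highest of many correlations is high by choice. In P/FC Gabra5 was most like Fezf2 (r = 0.82), a transcription factor of deep-layer cortical neurons, and Sstr1 (0.81), a somatostatin receptor. Gabrb2 was most like Plcb1 (0.85) and Tuba4a (0.85), and Gabra4 like Cyld (0.87) and Syt4 (0.87). Gabrd was most like the calcium pump gene Atp2b2 (0.78) and Kctd1 (0.72), Gabra3 like Ube2z (0.87) and Srprb (0.84), Gabra2 like N4bp1 (0.78) and the potassium channel gene Kcnd2 (0.73), and Gabrb1 like Slc35c2 (0.68) and St6gal1 (0.67).

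In HIP Gabra4 had the closest partners, Mbnl2 and Rab5b (0.91 each). Gabrb2 was most like Arpp21 (0.84) and Rgs4 (0.82), Gabra5 like Pcdh20 (0.74) and Lats2 (0.72), and Gabrd like Lrrc26 (0.74) and the potassium channel gene Kcnc4 (0.73). Gabra2 was most like the kinase gene Camk2a (0.69) and Dgkg (0.67), and Gabrb1 like Thbs3 (0.64) and Nfia (0.62). No gene stood among the closest 2 of a member in both regions, although Mbnl2 was also close to Gabra4 in P/FC (0.85, rank 6). Aak1 was close to Gabra4 in both regions (0.88, rank 3 in HIP, and 0.86, rank 5 in P/FC).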

How the data were processed

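RNA of P/FC and HIP was measured on 78 Affymetrix rat genome arrays, and the authors deposited 1 intensity per probeset and array, normalised and background-subtracted in Rosetta Resolver, on a linear scale (16116 of 2425722 values lie at or below 0). Line, cohort and region came from the labels. The labels call the arrays biological replicates and do not give the labelling batch or which arrays share a rat, so the batch is in no model and arrays were taken as independent. P-values thus measure the spread between these samples.

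Here values under 1 were set to 1 and log2 was taken. A probeset was retained if 50% or more of each line's arrays exceeded 30 (21630 in HIP, 22370 in P/FC). Linear models (limma 3.58.1, R 4.3.3) were fitted to the regions one at a time, with 4 group means (line by cohort) and equal weight for both cohorts. All 78 arrays entered the comparison of the regions. Benjamini-Hochberg adjustment ran over all probesets kept, with a threshold of 0.05. The number of arrays limits the precision. On simulated P/FC data the fit called 51% of 100 probesets changed by 0.25 log2, 94% of 100 changed by 0.50 and 0.0406% of 22170 unchanged probesets. Far fewer probesets were changed there than passed in the real P/FC data (18.6%). The simulated noise was drawn independently for each probeset, so these shares need not hold for the real arrays.

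Correlations used deviations from line and cohort means, with a two-sided permutation test of 100000 resamples within line and cohort (numpy 2.4.6). Of the 31099 probesets 20832 had 1 gene symbol, 436 several and 9831 none, and 57 controls were left out of the tests. The probesets of all 7 members are named, with the 2 genes most like each member and up to 4 passing genes of a pathway list, each gene by its brightest probeset over all arrays. Members and lists were chosen with earlier results of these data known. Alternatives changed the filter, normalisation, offset, variance, RNA ratio, tissue markers, probeset and replicate number, or left out each array in turn. Others fitted each cohort apart or added the main component of the residuals, which need not follow the labelling batch.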

Additional observations from a re-analysis of the deposited data

Results flagged for a closer look

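Dixon's test was applied to the highest and lowest array of each group of 8 to 10 arrays, for 10 probesets in 6 groups each (60 in all), and 7 arrays stood apart from the rest of their group. Chance alone gives about 1 in 20. Of these, 5 lay in FRL HIP of cohort 2. Replicate 2 of that group had the highest value of the brighter Gabrb2 probeset at 882 (next 764) and the highest value of the main Gabrd probeset at 323 (next 258). Replicate 4 had the highest Gabra3 at 29.6 (next 18.8) and the highest value of the Gabrd s probeset at 112 (next 59.2). Replicate 10 had the highest value of the dimmer Gabrb2 probeset at 64.1 (next 48.0). In FSL HIP of cohort 2 replicate 4 had the highest value of the Gabrd x probeset at 108 (next 84.8). In FRL P/FC of cohort 2 replicate 7 had the highest Gabrb1 at 703 (next 625).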

How the results depend on the processing

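The limits lie in RNA integrity and cell makeup, in the unknown labelling batch, and in Gabra3, which is dim. Measured RNA ratios and astrocyte markers differed on average between the lines in both regions. In P/FC 5 probesets passed, and 0 did with the Gapdh ratio, 2 with the beta-actin ratio, 2 with tissue marker scores and 0 with the astrocyte score, the last chosen after seeing the data. Leaving out each array in turn gave 4 to 5 in P/FC and 0 to 1 in HIP, where Gabra2 passed without FRL HIP cohort 1 replicate 2 or 12 or cohort 2 replicate 6 or 8. The main Gabrd probeset in P/FC was lost without FSL cohort 2 replicate 1, 4 or 8, FSL cohort 1 replicate 2 or 9, or FRL cohort 1 replicate 2, and Gabrb1 in P/FC passed (0.22, adjusted p = 0.0315) without FSL cohort 1 replicate 2. In HIP 1 probeset, Gabra2 (0.22, adjusted p = 0.0406), passed with a filter at 100. With the mean of a gene's probesets, Gabrd in P/FC gave 0.027, Gabra4 with Gabrb2 in HIP r = 0.37 and Gabra3 with Gabrd in P/FC r = 0.41, each with the sign turned, and Gabrb2 gave a P/FC line change of 0.31 (adjusted p = 0.0165).

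Of the pairs of genes 3 passed in P/FC, and 0 did within cohort 2, 8 with probeset means, 1 with the Gapdh ratio and tissue scores fitted and 1 with the astrocyte score fitted. The pair that passed with the astrocyte score was Gabrb2 with Gabrd (r = 0.56, adjusted p = 0.0108 by permutation), which was not among the 3. In HIP 2 passed, and 0 did within cohort 1, 4 within cohort 2, 1 with probeset means, 0 without the 2 outermost arrays, 1 after quantile normalisation and 1 with the astrocyte score fitted. The HIP pair that passed with probeset means was Gabra4 with Gabrb2, which was not among the 2. The cohort 2 pairs in HIP were Gabrb2 with Gabrd (r = 0.81), Gabrb1 with Gabrd (-0.76), Gabra5 with Gabrd (-0.73) and Gabrb1 with Gabrb2 (-0.65). The causes were not tested. Over single values of the other alternatives, 545 stayed on their side of the threshold (503 with their direction, and 42 that passed in neither setting with the sign changed), 40 no longer passed, 12 newly passed and 3 turned.

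Same-numbered FSL and FRL arrays deviated together (r over 0.1) in 10 of 17 P/FC and 8 of 17 HIP pairs. The median r was 0.15 in P/FC and 0.09 in HIP. In each region the same-numbered FRL array was the closest for 5 of 17 FSL arrays. The labels do not say what the numbers stand for, so this check cannot decide whether they pair the rats. With the replicate block 5 P/FC probesets passed, with Gabrb1 (0.19, adjusted p = 0.0254) gained and the main Gabrd probeset (-0.12, adjusted p = 0.0627) lost, and 0 in HIP.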

Other observations

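Other cell type markers differed between the regions in the arrays that carry the subunits. All 9 inhibitory interneuron markers were higher in P/FC than in HIP, with a median log2 difference of 0.66, and 5 of 6 oligodendrocyte markers were lower, with a median of -0.22. Of 8 striatal markers kept in both regions 7 were higher in P/FC, with a median of 1.18. Of the GABA pathway lists, 7 of 12 receptor trafficking genes were higher in P/FC and 1 was lower, and 3 of 6 genes of GABA synthesis, uptake and breakdown were higher and 1 was lower, against 48.5% of all probesets higher and 21.1% lower. Summed choroid plexus markers on the HIP arrays spanned 288 to 14587 in FSL and 272 to 11557 in FRL.

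With the inhibitory interneuron markers, the dimmer Gabrb2 probeset had r = 0.46 in P/FC (adjusted p = 0.0392 by permutation) and rho 0.38 (adjusted p = 0.104 by permutation), with 0.60 in cohort 2, 0.31 in cohort 1 and 0.34 without the 2 outermost arrays. Gabra2 had r = 0.42 with them (rho 0.39, adjusted p = 0.0897 by permutation for r), and Gabra3 passed by rho (0.47, adjusted p = 0.0341 by permutation) and not by r (0.40, adjusted p = 0.120 by permutation).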
